A study of Rattus norvegicus with 18 samples.

Results

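The experiment described here is the 6 h oxygen deprivation of cultured 9L cells, a rat gliosarcoma line derived from the Fischer strain and used as a transplantable glioma model. Its 6 samples, out of 18 in the series, were chosen by their titles and the oxygen level of the culture: 3 hypoxic cultures held at 0.2% oxygen for 6 h and 3 normoxic cultures held at about 20% oxygen for 6 h, numbered 6, 13 and 26 on each side. All were grown in MEM with newborn calf serum, detached with trypsin and lysed, and no group carried a genetic change or a drug. Total RNA was amplified with a linear kit for small inputs and read on Rat Gene 1.0 ST arrays from Affymetrix, which measure each transcript with a set of probes, a probe set. The series also holds 3 hypoxic and 3 normoxic cultures at 16 h, and hypoxic and normoxic regions laser-captured from 3 9L tumours grown in Fischer rats, where regions were told apart by the hypoxia marker EF5. The cultures are a single tumour line in an artificial medium, without vessels, host cells or an oxygen gradient.

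Cells sense oxygen through prolyl hydroxylases, which use it to mark the alpha subunits of hypoxia-inducible factor (HIF) for destruction. When oxygen is scarce the alpha subunits persist, join the constant partner ARNT and bind short DNA elements with the core letters ACGTG or GCGTG near their target genes. Textbook targets supply glucose and run glycolysis, hold pyruvate out of the mitochondria, remove mitochondria, pump out acid and signal to blood vessels. HIF also raises several of the hydroxylases that end its own activity. In gliomas the programme is best known from the cells that border necrosis.

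At 6 h the response was almost wholly upward. Across 27363 probe sets tested with limma and Benjamini-Hochberg adjustment at 0.05, 50 were higher in hypoxic cultures (0.183% of those tested) and 2 were lower (0.00731%), together 0.190%. The 45 higher probe sets that carry a single gene symbol belong to 42 genes. Of the 5 others, 2 share every value, so 1 signal is counted 2 times. With each gene taken at 1 probe set, its brightest on average, 41 of 14324 genes were called higher (0.286%) and 0 lower. At an unadjusted p of 0.05, limma gave 851 probe sets higher and 556 lower, 1407 in all, where chance alone gives 1368.15. In the gene lists below, counts of calls stand against the shares of all genes. The lists were chosen with earlier results of these data known, so a count above such a share can be partly set by that choice. Counts at that p stand against these 851 and 556 of 27363 probe sets. The lists hold genes at 1 probe set each, so the sets are unlike, and the share over genes at that p was not counted. The changes among the higher probe sets ran from 0.61 to 2.42 on the log2 scale, 1.52- to 5.34-fold, and 32 reached 1 log2 unit. In all 52 called probe sets the hypoxic and normoxic values did not overlap. The calls were made from these same values, so this adds no support to them. Over all probe sets, 5.60% had the 3 hypoxic values above and 3.98% had them below.

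**Figure D1:**
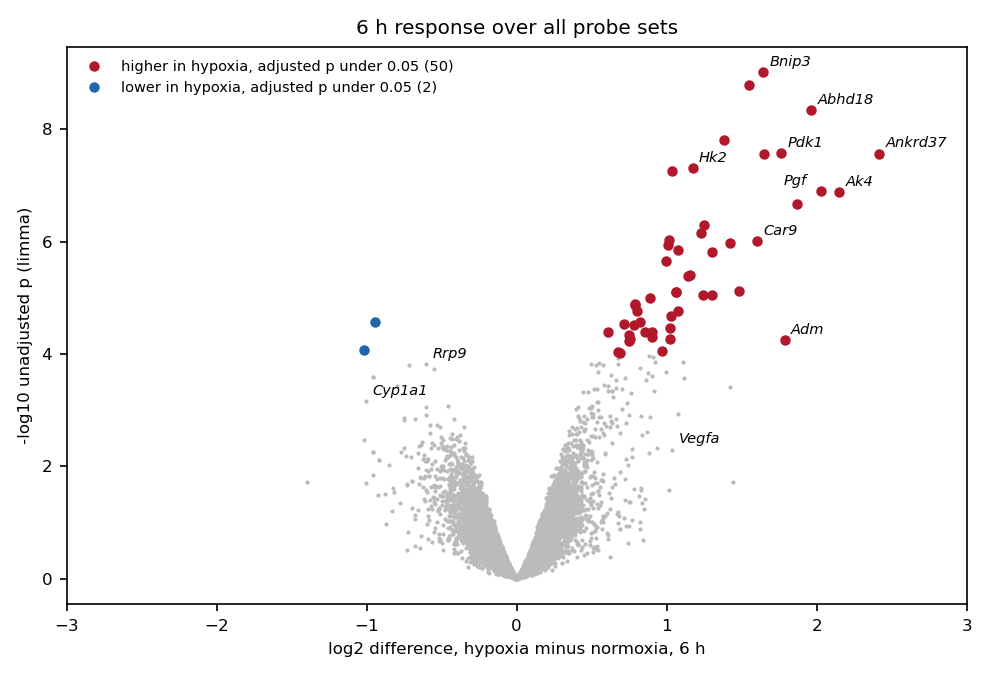
Log2 change (hypoxic minus normoxic at 6 h, horizontal axis) against the unadjusted p of limma on a minus log10 scale (vertical axis), 1 point per probe set. The 50 called higher lie on the right, Ankrd37 farthest out at 2.42, and the 2 called lower, neither with a single gene symbol, lie on the left.

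The rest of the transcriptome moved little. The median change over 14324 genes was 0.01 log2 units, 52.5% of genes had a higher mean in hypoxia, and the central 95% of changes lay between -0.31 and 0.31. Only 27 genes were more than 1 unit higher and 2 more than 1 unit lower in the group means. The 6 arrays were alike in scale, with medians of 6.02 to 6.16, and correlated at 0.9887 to 0.9933 among hypoxic cultures, at 0.9889 to 0.9957 among normoxic cultures and at 0.9878 to 0.9958 between the groups. Probe set levels differ in scale between genes, so each gene below is compared with itself only.

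The count of higher probe sets changed when single arrays were left out. Such fits have fewer samples, so a lost call need not mean that the change rested on that array. Map2k1 lost its call each time, while its change ran only from 0.55 to 0.64. It was 28 without hypoxic culture 13, 27 without hypoxic culture 26, 31 without normoxic culture 6 and 29 without normoxic culture 13, 48 without hypoxic culture 6 and 37 without normoxic culture 26. Of the 41 called genes, 18 stayed past the threshold whichever of the 6 arrays was left out, and 23 lost it at least once. The 18 were Abhd18, Ak4, Ankrd37, Bnip3, Bnip3l, Car9, Egln3, Ero1a, Gbe1, Gys1, Hk2, Insig2, Kdm3a, Pdk1, Pgf, Rcor2, Slc2a1 and Vldlr. Of the others, Hmox1, Ndrg1 and Zfp292 lost the call without 2 of the arrays, Asph without 3, Nudt22, P4ha1 and Tgfb3 without 4, Map2k1 and Syt17 without each of the 6, and the other 14 without 5. The number of these genes that lost the call was 21 without hypoxic culture 13 and 21 without hypoxic culture 26. It was 19 without normoxic culture 6, 19 without normoxic culture 13, 15 without normoxic culture 26 and 8 without hypoxic culture 6. When the 6 tumour arrays joined the fit and its spread estimate, 6 higher and 0 lower probe sets were called. These belonged to Ankrd37, Pdk1, Ero1a, Ak4, Pgf and Gys1. The rest of the 18 genes lost their calls there, among them Bnip3 (limma adjusted p 0.304), Hk2 (0.579), Bnip3l, Egln3 and Slc2a1. With the culture number as a replicate block, 57 probe sets (0.208%) were higher and 3 (0.0110%) lower.

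The 3 largest changes were in genes of unlike function. Ankrd37 encodes a small ankyrin-repeat protein known in human cells as a HIF target. It read 9.81, 9.68 and 9.84 in hypoxic cultures 6, 13 and 26, against 7.45, 7.33 and 7.30 in normoxic cultures, as log2 signal. Every hypoxic value stood more than 2 units above every normoxic one, and the change was 2.42 ± 0.21 (SE), a 5.34-fold rise with a limma adjusted p of 0.000106. Ak4, a mitochondrial adenylate kinase, read 9.32, 8.90 and 8.79 in hypoxic cultures, against 6.88, 7.08 and 6.61 in normoxic cultures. Pgf encodes placental growth factor, a ligand of the first VEGF receptor, and read 8.38, 7.78 and 8.41 in hypoxic cultures, against 5.81, 6.15 and 6.53 in normoxic cultures. Ak4 rose by 2.15 ± 0.22, or 4.44-fold, and Pgf by 2.03 ± 0.20, or 4.08-fold, both with a limma adjusted p of 0.000324. Each of the 3 stayed called whichever array was left out.

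**Figure D2:**
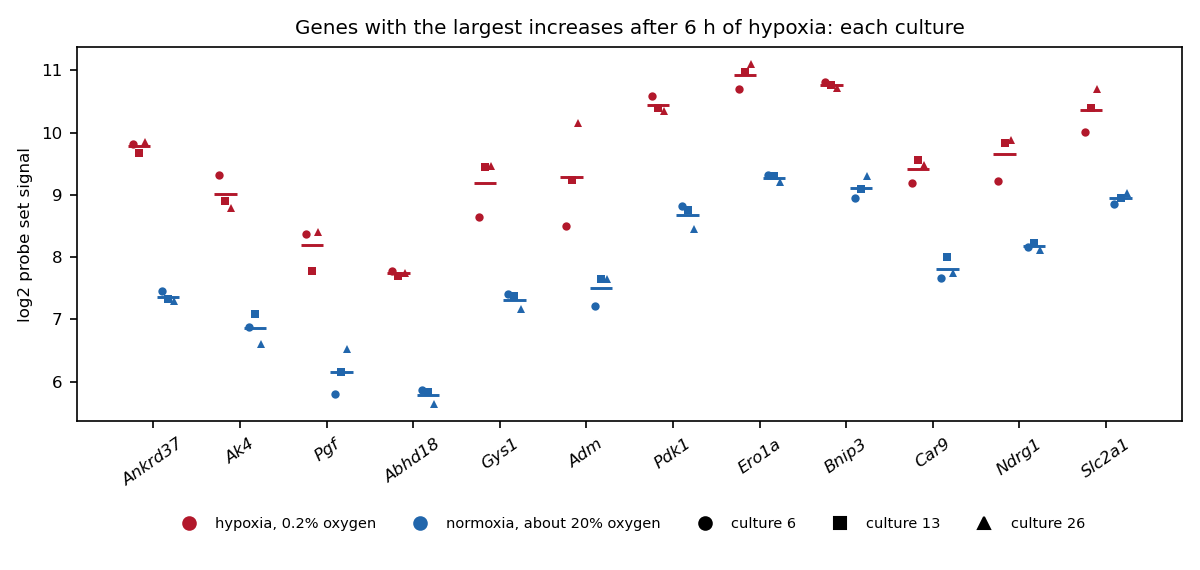
Log2 signal of 12 genes in each of the 6 cultures, hypoxic (left) and normoxic (right), with points for single cultures and bars for the group mean. The hypoxic points lie above the normoxic points in every panel, Ankrd37 at 9.68 to 9.84 against 7.30 to 7.45.

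Promoter letters were looked up because HIF binds a defined core. RefSeq promoters of the GRCr8 build, 250 bases before to 50 bases after the annotated start, were found for 32 of the 41 called genes, 33 windows in all. The core ACGTG, searched on both strands, was present in 16 of the 33 windows, 48.5%, against 22.1% of 12364 windows of genes measured on the array and 19.3% of all 33469 windows. GCGTG was present in 63.6%, against 40.5% and 29.7%. The called genes' windows were also richer in CpG, a median of 23 per window against 16 and 7, and the part of CpG in the motif shares was not tested. A palindromic CACGTG holds overlapping matches on both strands and counts as 2.

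The sequences below run 5′ to 3′ on the gene's strand, in lower case, with each ACGTG or its reverse complement in capitals. They show the leading gene and 3 called genes of known HIF biology with ACGTG, and Pgf as a strongly raised gene without ACGTG, whose window holds 1 match of the other core, GCGTG. Ankrd37 lies at chr16:53001257-53001556 (+), Bnip3 at chr1:203154913-203155212 (-), Pdk1 at chr3:77113264-77113563 (+), Car9 at chr5:62558774-62559073 (+) and Pgf at chr6:110557698-110557997 (-).
Ankrd37: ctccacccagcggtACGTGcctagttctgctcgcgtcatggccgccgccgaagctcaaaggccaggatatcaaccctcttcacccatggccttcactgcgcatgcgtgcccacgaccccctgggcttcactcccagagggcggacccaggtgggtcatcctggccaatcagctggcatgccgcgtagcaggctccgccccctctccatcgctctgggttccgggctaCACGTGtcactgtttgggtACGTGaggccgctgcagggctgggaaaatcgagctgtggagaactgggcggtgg
Bnip3: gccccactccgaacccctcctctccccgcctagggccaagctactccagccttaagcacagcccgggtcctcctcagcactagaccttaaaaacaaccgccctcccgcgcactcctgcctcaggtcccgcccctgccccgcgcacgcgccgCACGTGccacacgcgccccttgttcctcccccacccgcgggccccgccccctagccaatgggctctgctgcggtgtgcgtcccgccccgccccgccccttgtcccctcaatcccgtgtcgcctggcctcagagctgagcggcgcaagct
Pdk1: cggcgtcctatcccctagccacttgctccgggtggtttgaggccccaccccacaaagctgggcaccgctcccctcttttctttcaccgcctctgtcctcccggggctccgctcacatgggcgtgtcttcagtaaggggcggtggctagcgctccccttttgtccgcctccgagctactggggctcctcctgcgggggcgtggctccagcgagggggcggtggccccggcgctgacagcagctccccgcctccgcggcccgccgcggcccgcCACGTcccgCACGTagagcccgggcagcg
Car9: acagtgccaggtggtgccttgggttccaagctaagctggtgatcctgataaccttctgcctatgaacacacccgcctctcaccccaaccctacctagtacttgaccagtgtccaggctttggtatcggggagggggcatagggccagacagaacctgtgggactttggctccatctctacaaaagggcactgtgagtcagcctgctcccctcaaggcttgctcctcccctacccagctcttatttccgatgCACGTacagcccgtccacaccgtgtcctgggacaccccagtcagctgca
Pgf: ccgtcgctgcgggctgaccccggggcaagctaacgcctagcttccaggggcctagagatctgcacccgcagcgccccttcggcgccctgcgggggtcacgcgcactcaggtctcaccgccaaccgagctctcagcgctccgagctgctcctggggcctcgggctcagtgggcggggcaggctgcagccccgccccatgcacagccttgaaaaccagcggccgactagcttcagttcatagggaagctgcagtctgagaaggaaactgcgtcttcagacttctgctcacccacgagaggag

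Ankrd37 held 4 matches, of which the nearest began 4 bases before the start. In Bnip3 the palindrome lay at 99 and 98 bases before the start. In Pdk1 the matches began at bases 22 and 31 and in Car9 at base 2, counting the start as base 1. A match in such a window is a run of letters and does not show that HIF bound there. In 6 of the 33 windows neither core was found.

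In glucose uptake and glycolysis the called genes were Slc2a1, Hk2, Gpi and Pfkl. Of 21 measured genes of this list, 4 were called higher (0.286% of all genes were) and 0 lower. In 10 all hypoxic values lay above all normoxic ones (5.58% of all genes did). The list's median change was 0.31, against 0.01 for all genes. Slc2a1, the main glucose transporter GLUT1, read 10.01, 10.39 and 10.69 in hypoxic cultures, against 8.86, 8.95 and 9.03 in normoxic cultures, a rise of 1.42 ± 0.17 (limma adjusted p 0.00171). Hk2, the hexokinase that traps glucose in the cell, read 8.79, 8.70 and 8.91 in hypoxic cultures, against 7.57, 7.63 and 7.68 in normoxic cultures. It rose by 1.17 ± 0.11 (limma adjusted p 0.000167) with no overlap. The next enzymes, glucose-6-phosphate isomerase Gpi and the liver-type phosphofructokinase Pfkl, rose by 1.03 ± 0.16 and 1.08 ± 0.17. Their limma adjusted p values were 0.0167 and 0.0144, and the calls were lost without 5 of the 6 arrays, at p values of up to 0.113 for Gpi and 0.104 for Pfkl.

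Other glycolytic genes did not pass the test. The group difference was 0.89 for the enolase Eno2 (limma adjusted p 0.0542), 0.72 for the aldolase Aldoc (0.0973) and 0.55 for the phosphofructokinase Pfkp (0.300), with no overlap in any of the 3 and none past the threshold. These 3 and the transporter Slc2a3 were picked for mention after their values were seen. Slc2a3 read 7.81, 8.70 and 8.86 in hypoxic cultures, against 7.36, 7.25 and 7.41 in normoxic cultures, a difference of 1.12 ± 0.23 (limma adjusted p 0.0979), with hypoxic culture 6 much the lowest of the hypoxic 3. The textbook HIF targets Pgk1 and Ldha did not pass. Pgk1, phosphoglycerate kinase, differed by 0.23 ± 0.12 (limma adjusted p 0.984).

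Ldha, the lactate dehydrogenase that recycles NADH in glycolysis, was read by 2 probe sets that disagreed. The brighter gave 12.68, 12.79 and 12.57 in hypoxic cultures, against 12.70, 12.64 and 12.51 in normoxic cultures, a difference of 0.07 ± 0.10. The other gave 11.71, 12.32 and 12.69 in hypoxic cultures, against 11.51, 11.79 and 11.11 in normoxic cultures, a difference of 0.77 ± 0.24 (limma adjusted p 0.667). Neither passed, and at both the values overlapped between the groups. The brighter set read near the highest signal of the 6 arrays, which was 13.11 to 13.31.

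At the pyruvate gate and in glycogen metabolism, Pdk1, Gys1 and Gbe1 were called higher. The list had 16 measured genes and also held Ak4, an adenylate kinase that belongs to neither process, so that 4 of its genes were called higher and 0 lower, with a median of 0.09. Pdk1, the kinase that switches off pyruvate dehydrogenase, read 10.59, 10.39 and 10.34 in hypoxic cultures, against 8.83, 8.76 and 8.45 in normoxic cultures, and rose by 1.76 ± 0.16 (limma adjusted p 0.000106). Gys1, muscle glycogen synthase, read 8.64, 9.45 and 9.46 in hypoxic cultures, against 7.41, 7.37 and 7.17 in normoxic cultures. Gys1 rose by 1.87 ± 0.20 (limma adjusted p 0.000487), hypoxic culture 6 being the lowest of its group. Gbe1, the branching enzyme that shapes glycogen, rose by 1.25 ± 0.14 (limma adjusted p 0.00108).

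Removal of mitochondria was represented by both receptors of the BNIP3 family, which sit on the outer mitochondrial membrane and recruit the autophagy machinery. Bnip3 read 10.81, 10.76 and 10.71 in hypoxic cultures, against 8.95, 9.10 and 9.30 in normoxic cultures, a rise of 1.64 ± 0.11 with the smallest limma adjusted p of all genes, 2.2e-05. A second probe set of the gene rose by 1.55. Bnip3l, also known as NIX, read 11.24, 11.32 and 11.22 in hypoxic cultures, against 10.17, 10.17 and 10.33 in normoxic cultures, a rise of 1.04 ± 0.10 (limma adjusted p 0.000167). In both genes the 3 hypoxic cultures read nearly alike and all stood above the normoxic cultures. The other 11 of 13 measured mitophagy and cell death genes were not called, and the list's median was 0.05. Higd1a, a small inner-membrane protein of mitochondria, rose by 0.85 ± 0.14 (limma adjusted p 0.0268) and missed the threshold with the replicate block, at an adjusted p of 0.0518. Fam162a, a mitochondrial protein known as a HIF-responsive gene, rose by 0.72 ± 0.12 (limma adjusted p 0.0212). Each lost its call without 5 of the 6 arrays, at adjusted p of up to 0.159 for Higd1a and 0.128 for Fam162a, and over all alternatives that of Higd1a ran from 0.00324 to 1.

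Among the 4 oxygen-sensing hydroxylases, Egln3 was called and Egln1 was called at 1 of its 2 probe sets. Egln3, the prolyl hydroxylase PHD3, read 8.19, 8.57 and 8.33 in hypoxic cultures, against 6.91, 7.17 and 7.32 in normoxic cultures, a rise of 1.23 ± 0.14 (limma adjusted p 0.00139). For Egln1, the main prolyl hydroxylase PHD2, the brighter probe set read 7.93, 8.33 and 8.30 in hypoxic cultures, against 7.28, 7.43 and 7.63 in normoxic cultures, a difference of 0.74 ± 0.17 (limma adjusted p 0.205). Its other probe set read 8.14, 8.41 and 7.75 in hypoxic cultures, against 6.76, 6.88 and 6.74 in normoxic cultures, and rose by 1.30 ± 0.19 (limma adjusted p 0.00881). The groups did not overlap at either probe set. The third prolyl hydroxylase, Egln2, differed by -0.01 and Hif1an, the asparaginyl hydroxylase FIH, by -0.14, neither past the threshold. Among the subunits, Hif1a read 9.51, 9.72 and 9.63 in hypoxic cultures, against 9.67, 9.87 and 9.46 in normoxic cultures, a difference of -0.05 ± 0.12. Epas1, which encodes HIF-2 alpha, differed by -0.14 ± 0.11 and Arnt by 0.01 ± 0.12. These are RNA levels, and the control of HIF alpha by oxygen acts on the protein. The sign of Hif1a and Arnt changed when some single arrays were left out. In this list 2 of 13 measured genes, Ankrd37 and Egln3, were called higher, and the median was 0.08.

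The endoplasmic reticulum and collagen group had the highest median of the 30 lists. Of 13 measured hydroxylases, oxidases and crosslinkers, 4 were called higher (0.286% of all genes were), 0 lower, and the median was 0.32. In 7 all hypoxic values lay above all normoxic ones, against 5.58% of all genes. Ero1a, the oxidase that keeps disulphide formation running in the endoplasmic reticulum, read 10.70, 10.98 and 11.10 in hypoxic cultures, against 9.32, 9.30 and 9.21 in normoxic cultures, and rose by 1.65 ± 0.15 (limma adjusted p 0.000106). P4ha1 and P4ha2, catalytic subunits of the collagen prolyl hydroxylase, rose by 0.83 and 1.02 ± 0.17 (limma adjusted p 0.0206 and 0.0243). Loxl2, a lysyl oxidase that crosslinks collagen, rose by 0.67 ± 0.12 (limma adjusted p 0.0498), just inside the threshold. With the replicate block P4ha2 (adjusted p 0.0594) and Loxl2 (0.0691) missed the threshold, leaving 2 of the 13 genes called. Over all alternatives the adjusted p ran from 0.0151 to 0.376 for P4ha2 and from 0.00994 to 0.234 for Loxl2. The lysyl hydroxylases Plod1 and Plod2, chosen after their values were seen, differed by 0.69 and 0.91 (limma adjusted p 0.0527 and 0.0561). Asph, which hydroxylates aspartate and asparagine residues in the endoplasmic reticulum, rose by 0.89 ± 0.13 (limma adjusted p 0.00964).

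Signals to blood vessels rose unevenly. Of 19 measured angiogenic and vasoactive genes, Pgf, Adm and Hmox1 were called, against 0.286% of all genes. In 7 all hypoxic values lay above all normoxic ones (5.58% of all genes did), and the median was 0.03. That median turned to -0.01 when arrays were centred on their medians, which lowers every change by 0.04. Adm encodes adrenomedullin, a vasodilating peptide, and read 8.49, 9.23 and 10.15 in hypoxic cultures, against 7.22, 7.64 and 7.65 in normoxic cultures. The hypoxic values of Adm spread over more than 1 log2 unit, and the rise of 1.79 ± 0.31 had a limma adjusted p of 0.0327. Without hypoxic culture 6 it was 2.19, without hypoxic culture 26 it was 1.36, and the call was lost without any array but hypoxic culture 6, at up to 0.215. Hmox1, heme oxygenase, read 10.36, 10.32 and 10.74 in hypoxic cultures, against 9.33, 9.06 and 9.31 in normoxic cultures, a rise of 1.24 ± 0.18 (limma adjusted p 0.00881).

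The call of Vegfa, the central angiogenic factor of hypoxia, depended on the fit. It read 8.65, 8.37 and 8.31 in hypoxic cultures, against 7.49, 7.29 and 7.43 in normoxic cultures, a difference of 1.04 ± 0.31. All hypoxic values lay above all normoxic values, yet the limma adjusted p was 0.607 in the fit of all 12 culture arrays, 0.0125 with the replicate block and 0.0115 in the 6 arrays at 6 h alone. Over all alternatives it ran from 0.0115 to 1. Apln, which encodes the vascular peptide apelin, read 8.06, 8.34 and 8.07 in hypoxic cultures, against 7.14, 7.42 and 7.43 in normoxic cultures. Its difference of 0.82 ± 0.16 had a limma adjusted p of 0.0739, and 0.0175 with the replicate block, within 0.0175 to 0.356 over all alternatives. With the block 5 of the 19 genes were called.

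Of the genes of acid export 1 was called. Car9, the cell-surface carbonic anhydrase IX, read 9.19, 9.56 and 9.48 in hypoxic cultures, against 7.67, 8.01 and 7.74 in normoxic cultures, and rose by 1.60 ± 0.19 (limma adjusted p 0.00166). The related Car12 differed by 0.34 (limma adjusted p 0.556), and the other 8 of the 9 measured genes of pH regulation were not called. The list's median was 0.13.

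Among the brakes on growth, 2 of 16 measured genes were called higher (0.286% of all genes were), and the median was 0.13. In 7 all hypoxic values lay above all normoxic ones, against 5.58% of all genes. Ndrg1, a gene linked to differentiation and slowed growth, read 9.23, 9.84 and 9.89 in hypoxic cultures, against 8.17, 8.23 and 8.12 in normoxic cultures, a rise of 1.48 ± 0.21 (limma adjusted p 0.00829). Mxi1, which competes with MYC for its partner MAX, read 9.99, 9.86 and 9.81 in hypoxic cultures, against 8.86, 8.62 and 9.11 in normoxic cultures, a rise of 1.02 ± 0.18 (limma adjusted p 0.0322). The other probe sets of Mxi1 both differed by 0.87 and were not called in this fit (limma adjusted p 0.0841 and 0.101). With the replicate block a further 2 genes of the list were called. Ddit4, the mTOR inhibitor REDD1, read 7.65, 7.61 and 7.84 in hypoxic cultures, against 6.51, 6.39 and 6.97 in normoxic cultures, a difference of 1.08 ± 0.26. Its limma adjusted p was 0.292, and 0.0170 with the block, within 0.0170 to 1 over all alternatives. Ccng2, an unusual cyclin that restrains the cell cycle, differed by 0.94 ± 0.28, at a limma adjusted p of 0.595, and 0.0464 with the block, within 0.0464 to 1.

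Several chromatin and lipid regulators belonged to the early set. Kdm3a, a histone H3 lysine demethylase that needs oxygen, read 9.84, 10.03 and 10.03 in hypoxic cultures, against 9.10, 9.15 and 8.66 in normoxic cultures, a rise of 1.0 ± 0.13 (limma adjusted p 0.0029). It was the 1 called gene of 11 measured Jumonji and related demethylases, whose median was 0.20. In 6 of them all hypoxic values lay above all normoxic ones, against 5.58% of all genes. Kdm2a differed by 0.50 (limma adjusted p 0.286). Rcor2, a corepressor of the CoREST family, rose by 1.01 ± 0.12 (limma adjusted p 0.00171), and its second probe set by 1.01. Insig2, which holds back the sterol sensor in the endoplasmic reticulum, read 8.62, 8.79 and 9.05 in hypoxic cultures, against 7.38, 7.49 and 7.67 in normoxic cultures, a rise of 1.30 ± 0.16 (limma adjusted p 0.00206). Of 15 measured sterol and fatty acid genes it was the 1 called, the squalene epoxidase Sqle differed by 0.28, and the median was 0.14. Vldlr, a receptor for very low density lipoprotein, read 7.90, 8.0 and 8.41 in hypoxic cultures, against 7.01, 7.02 and 7.06 in normoxic cultures, a rise of 1.07 ± 0.13 (limma adjusted p 0.00205).

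Some called genes are less often named with hypoxia. Abhd18, an abhydrolase-domain gene, read 7.78, 7.70 and 7.75 in hypoxic cultures, against 5.87, 5.83 and 5.63 in normoxic cultures. Its rise of 1.96 ± 0.15, or 3.90-fold (limma adjusted p 4.12e-05), was the fourth largest, with the 3 hypoxic cultures nearly alike. Map2k1, the kinase MEK1 of the growth factor pathway, had the smallest called change. It read 9.55, 9.54 and 9.73 in hypoxic cultures, against 9.00, 8.96 and 9.02 in normoxic cultures, a rise of 0.61 ± 0.10 (limma adjusted p 0.0268). Tgfb3, a growth factor of the TGF-beta family, read 8.26, 8.31 and 7.91 in hypoxic cultures, against 7.58, 7.39 and 7.23 in normoxic cultures, a rise of 0.76 ± 0.13 (limma adjusted p 0.0322). Nampt, the entry enzyme of NAD salvage, rose by 0.90 (limma adjusted p 0.0315), and Spr, which makes the cofactor tetrahydrobiopterin, by 0.78 (0.0218).

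The remaining called genes were the thioesterase Olah, the transmembrane gene Tmem106a, the nudix hydrolase Nudt22, the zinc finger gene Zfp292, the Rab regulator Tbc1d8b, the phospholipid flippase Atp11b and the synaptotagmin Syt17. Their rises ran from 0.69 in Syt17 to 0.97 in Tmem106a, with limma adjusted p between 0.0115 and 0.0498. Map2k1 and Syt17 lost their calls without each of the 6 arrays, and Tbc1d8b and Atp11b lost theirs with the replicate block (adjusted p 0.0973 and 0.0995). Zfp292 held 6 ACGTG matches in its promoter window. Of its 3 probe sets, another was called (0.79, limma adjusted p 0.0119) and the last was not (0.87, limma adjusted p 0.433). Over all alternatives the adjusted p of Tbc1d8b ran from 0.00994 to 1 and that of Atp11b from 0.0119 to 0.304.

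**Figure D3:**
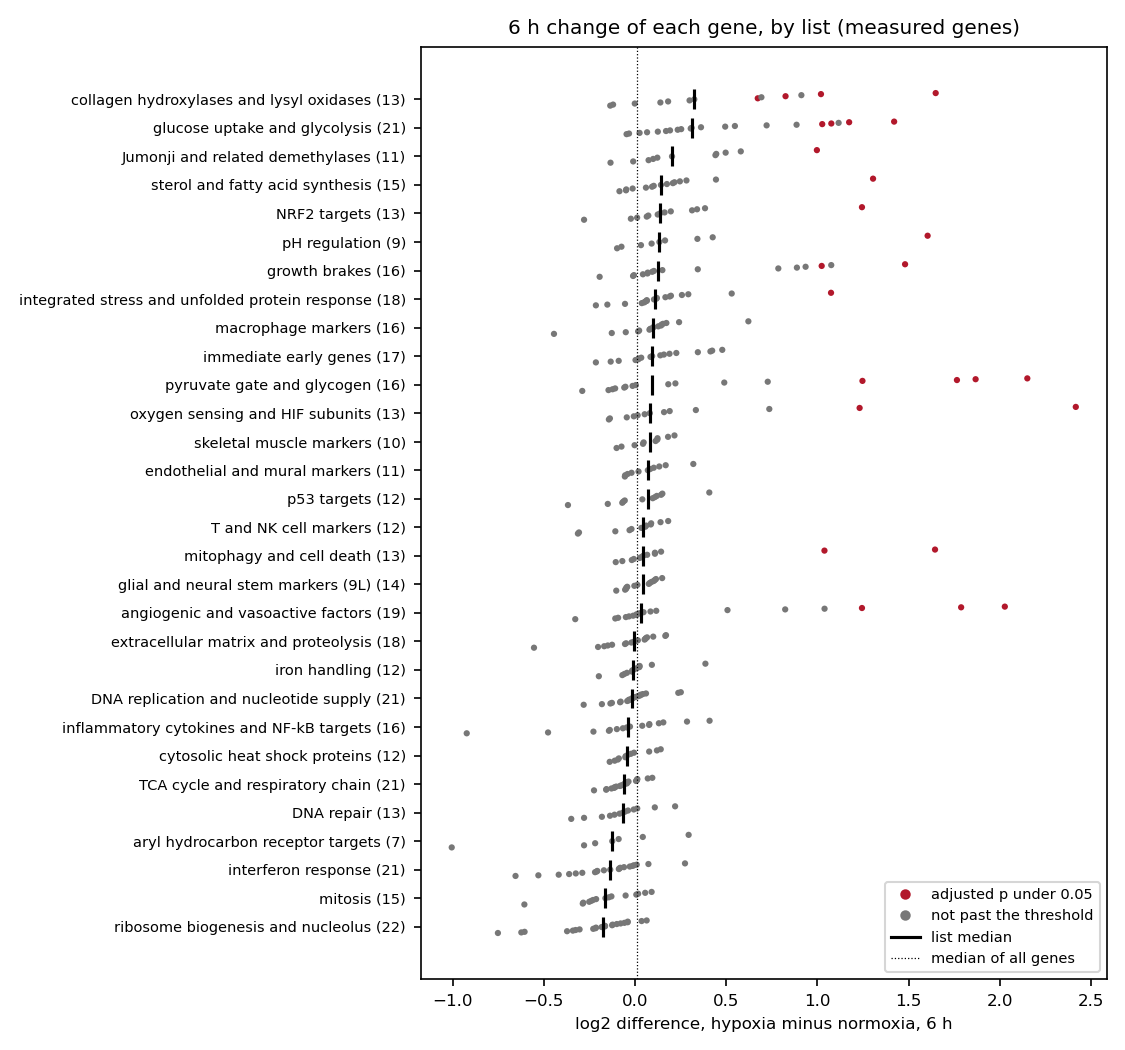
Log2 change (hypoxic minus normoxic at 6 h) of each measured member of the 30 gene lists, 1 point per gene, with red points for called genes and a bar at each list's median. Glycolysis (median 0.31) and collagen hydroxylases (0.32) lie highest, ribosome biogenesis (-0.17) and mitosis (-0.16) lowest, and the dotted line is the median of all genes.

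Fewer genes went down, and none of them passed the test. Of the 14324 genes, 669 (4.67%) had all hypoxic values below all normoxic ones, against 799 (5.58%) above. Over probe sets this split was 1532 above and 1089 below as deposited, and 1054 above and 1569 below with the arrays centred on their medians, so the balance of small changes depended on the scaling. The smallest unadjusted p values among lower genes belonged to Rrp9, a protein of the U3 small nucleolar RNP that processes ribosomal RNA. It read 6.47, 6.30 and 6.39 in hypoxic cultures, against 6.93, 6.86 and 7.18 in normoxic cultures, a difference of -0.61 ± 0.12 (limma adjusted p 0.066). Next came Hibch, an enzyme of valine breakdown, at 7.03, 7.23 and 6.83 in hypoxic cultures, against 7.54, 7.60 and 7.61 in normoxic cultures, a difference of -0.55 ± 0.11 (limma adjusted p 0.075). The groups of both genes were apart. Of the first 10 so ranked, 5 more differed by -0.80 (the double-stranded RNA sensor Tlr3), -0.68 (Tmem168), -0.60 (Gemin8, of the SMN complex), -0.46 (Atp1b3, a sodium pump subunit) and -0.42 (the peptide transporter Tap1), at limma adjusted p of 0.126 to 0.315.

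The other 3 of those 10, Cyp1a1, Wdr46 and Nap1l2, passed the threshold with the replicate block and not without it. The choice of genes lower in every pair favours a fit by pairs, so these passes are partly set by it. Cyp1a1, the cytochrome P450 induced by the aryl hydrocarbon receptor, which shares ARNT with HIF, read 5.57, 5.09 and 5.24 in hypoxic cultures, against 6.91, 6.0 and 6.0 in normoxic cultures. Its difference of -1.0 ± 0.23 had a limma adjusted p of 0.199, and 0.0176 with the block, within 0.0176 to 0.627 over all alternatives. Wdr46, a nucleolar protein of ribosome assembly, read 7.09, 7.15 and 7.13 in hypoxic cultures, against 7.71, 7.81 and 8.12 in normoxic cultures, a difference of -0.75 ± 0.19 (limma adjusted p 0.305, and 0.0348 with the block). Nap1l2, a nucleosome assembly protein, read 5.53, 5.92 and 5.42 in hypoxic cultures, against 6.41, 6.5 and 6.21 in normoxic cultures, a difference of -0.75 (limma adjusted p 0.316, and 0.0395 with the block). Over all alternatives the adjusted p of both ran up to 1. In each of the 3 the groups did not overlap. The aryl hydrocarbon receptor list had 7 measured genes, a median of -0.12 and 0 calls by limma without the block, 1 lower with it, and 1 lower at an unadjusted p of 0.05. The receptor Ahr itself differed by 0.29 (limma adjusted p 0.984).

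Most genes of ribosome production were slightly lower without passing the test. Of 22 measured members, 20 had a lower mean in hypoxic cultures, 10 had all hypoxic values below all normoxic ones, against 4.67% of all genes, and the median was -0.17. Limma called 0 of them, gave 4 lower at an unadjusted p of 0.05, and called 1, Wdr46, with the block. The list's mean level ranged from 9.14 to 9.16 in hypoxic cultures, against 9.31 to 9.42 in normoxic cultures, with no overlap. Members apart between the groups included Rrs1 (-0.62), Noc2l (-0.37), Noc4l (-0.33) and Bop1 (-0.30), which serve the assembly of the ribosomal subunits, and were picked after their values were seen. After quantile normalization the median was again -0.17.

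In the interferon response, 18 of 21 measured genes were lower, and the median was -0.14. Between same-numbered cultures 6, 13 and 26 the list's median difference was -0.029, -0.183 and -0.229. In 6 all hypoxic values lay below all normoxic ones, against 4.67% of all genes. Limma called 0 and gave 4 lower at an unadjusted p of 0.05 (556 of all 27363 probe sets were). Cxcl10, a chemokine that draws T cells, read 9.06, 9.16 and 8.56 in hypoxic cultures, against 9.27, 9.67 and 9.81 in normoxic cultures, a difference of -0.65 ± 0.22 (limma adjusted p 0.778). Ifit3, an interferon-induced antiviral protein, differed by -0.53. The mean level of the list ran from 6.41 to 6.57 in hypoxic cultures, against 6.61 to 6.69 in normoxic cultures.

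Mitotic genes had a median of -0.16, with 11 of 15 measured genes lower. Between same-numbered cultures 6, 13 and 26 the list's median difference was -0.263, -0.045 and -0.051, so it was uneven. Of them 0 were apart between the groups, against 4.67% of all genes. Cdc20, the activator of the anaphase-promoting complex, differed by -0.61, and by -1.20, -0.54 and -0.08 in the same-numbered cultures. It was the 1 mitotic gene lower at an unadjusted p of 0.05, with 0 calls by limma, and the mitotic kinase Cdk1 differed by -0.28. Genes of DNA replication (21 measured, median -0.01) and of DNA repair (13 measured, median -0.07) had 0 calls by limma, with 0 and 1 at an unadjusted p of 0.05. The replication genes E2f1 and Mcm10 differed by 0.25 and -0.28, and the break repair genes Xrcc1 and Xrcc6 by 0.22 and -0.35. For the tricarboxylic acid cycle and respiratory chain, 15 of 21 measured genes were lower, the median was -0.06, and limma called 0, also 0 at an unadjusted p of 0.05. Its leading members were Sdhb of complex II (-0.16) and the cytochrome oxidase subunit Cox4i2 (-0.22).

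Other stress programmes held few calls. Of 18 measured genes of the integrated stress and unfolded protein responses, 1 was called (Vldlr) and the median was 0.11. Atf4, its central factor, differed by 0.04, Ddit3 (CHOP) by 0.12, the chaperone Hspa5 by 0.10 and the degradation adaptor Sel1l by 0.29. The 12 measured cytosolic heat shock genes had a median of -0.05, 0 calls by limma and 0 at an unadjusted p of 0.05, and the 17 immediate early genes a median of 0.09, 0 calls and 1 at that p. Among them the heat shock cochaperones Dnaja1 and Bag3 differed by -0.14 and 0.14, and the transcription factors Klf2 and Klf4 by 0.42 (limma adjusted p 0.328) and 0.23. Of 13 measured NRF2 targets Hmox1 alone was called, with a list median of 0.14, and glutathione reductase Gsr differed by 0.34. The 12 p53 targets (median 0.07) had 0 calls by limma and 1 lower at an unadjusted p of 0.05, Zmat3 (-0.37), while the kinase Plk2 differed by 0.41. Iron-handling genes (12 measured, median -0.01) had 0 calls and 1 higher at that p, the ferritin receptor Ncoa4 (0.39), and the transferrin receptor Tfrc differed by -0.20. Inflammatory cytokines and NF-kB targets (16 measured, median -0.04) had 0 calls, 1 higher and 2 lower at that p, with the chemokines Ccl20 and Ccl7 at 0.29 and -0.92. The 18 extracellular matrix and proteolysis genes had a median of -0.003 as deposited and 0.01 after quantile normalization, with 0 calls by limma and 1 lower at that p, the plasminogen activator Plau (-0.55), and the membrane protease Mmp14 differed by -0.15. None of the members given in this paragraph other than Vldlr and Hmox1 passed the threshold.

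The label of a cultured glial tumour line was set against marker lists. Vim, the intermediate filament vimentin, read 12.2 to 12.4 over the 6 cultures, the neural stem genes Sox2 6.49 to 7.19 and Nes 6.17 to 6.41, and the glial genes Gfap 4.83 to 5.19, S100b 4.38 to 4.92 and Olig1 4.79 to 4.99. The files carry no detection call, so absence cannot be read from these levels. The mean level of the 14 glial and neural stem markers ran from 6.26 to 6.45 in hypoxic cultures, against 6.20 to 6.42 in normoxic cultures, with 0 calls by limma and a median of 0.04. For 16 macrophage markers the mean was 5.38 to 5.61 in hypoxic cultures, against 5.38 to 5.46 in normoxic cultures, and 5.08 to 5.28 against 5.15 to 5.23 for 12 T and NK cell markers. For 11 endothelial and mural markers it was 5.54 to 5.77 in hypoxic cultures, against 5.54 to 5.62 in normoxic cultures, and 5.40 to 5.59 against 5.39 to 5.46 for 10 skeletal muscle markers. Each of these ranges overlapped between the groups. Medians of change were 0.10, 0.05, 0.07 and 0.08, in that order, with 0 calls by limma in each of the 4 lists, and at an unadjusted p of 0.05 with 1 (Cd68, -0.44), 2 (Lck and Cd2, each -0.31), 0 and 0 genes lower and none higher. The other leading members, the macrophage receptor Csf1r (0.62), the mural genes Pdgfrb (0.32) and Myh11 (0.13), the muscle genes Ckm (0.22) and Mb (0.18) and the astrocyte channel Aqp4 (0.15), had limma adjusted p of at least 0.984.

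Most of the early calls were also called after 16 h in other cultures of the line. Both times came from 1 fit and share each probe set's spread estimate, so the 2 lists of calls are not independent. Limma called 165 probe sets higher (0.603%) and 28 lower (0.102%) at 16 h. Of the 50 probe sets higher at 6 h, 48 were among them, 96% of the 6 h list and 29.1% of the 16 h list, and 0 of the 2 lower were called at 16 h. The exceptions were Vldlr, at 0.60 with a limma adjusted p of 0.061, and Tgfb3, at 0.14 with 0.894. Of the 41 called genes 23 had the larger change at 16 h and 18 at 6 h, with medians of 1.03 at 6 h and 1.24 at 16 h, against 0.01 and -0.03 for all genes. Ankrd37 changed by 2.42 at 6 h and 3.16 at 16 h, Ak4 by 2.15 and 1.48, and Insig2 by 1.30 and 2.01, in each case 6 h before 16 h.

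No difference between the 2 times passed the test. The contrast of the 6 h response minus the 16 h response gave 0 probe sets by limma at an adjusted p of 0.05, with a smallest adjusted p of 0.982 and 1194 at an unadjusted p of 0.05. Cyp1a1 differed by -1.0 at 6 h and 0.02 at 16 h, Hibch by -0.55 and 0.0042, and Apln by 0.82 and 0.25, and none of these differences passed. Ribosome production had a median of -0.17 at 6 h and -0.38 at 16 h, mitosis -0.16 and -0.43, and interferon response -0.14 and -0.19. At 16 h Cxcl10 (-1.24) and Ifit3 (-0.98) were called lower. The 6 h and 16 h cultures carry different numbers, so time and culture cannot be told apart.

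**Figure D4:**
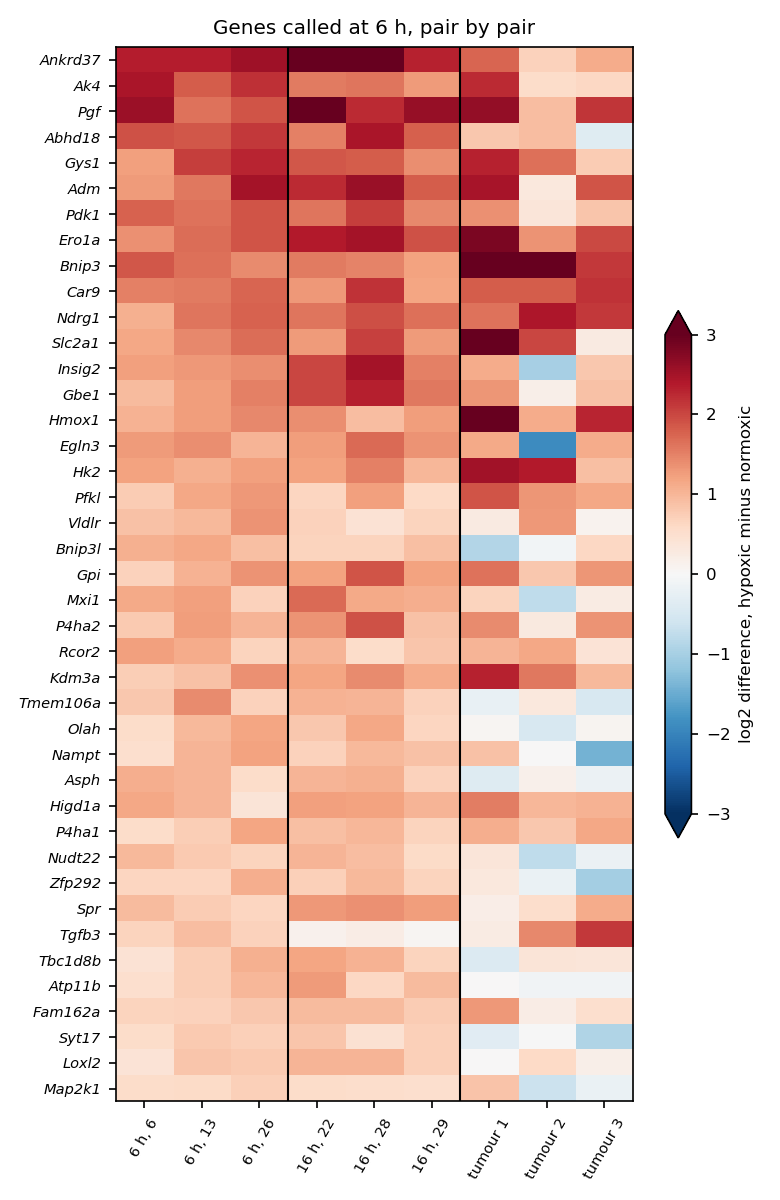
Log2 difference, hypoxic minus normoxic, of the 41 genes called at 6 h, in each same-numbered 6 h pair (6, 13 and 26), each 16 h pair and each of the 3 tumours. Red is higher and blue lower in hypoxia, colours saturate at 3, and values run from -1.88 to 4.33. The culture columns are red throughout, palest for Tgfb3 at 16 h (0.05 in its smallest pair), while the tumour columns hold both colours.

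The 3 same-numbered culture pairs gave similar medians over the called genes, while single genes and lists differed more. Gpi differed by 0.69, 1.04 and 1.34 in pairs 6, 13 and 26. The glycolysis list had medians of 0.20, 0.36 and 0.65, and the pyruvate and glycogen list of -0.05, 0.20 and 0.14. The median difference of the 41 genes was 1.04 in pair 6, 1.16 in pair 13 and 1.20 in pair 26, and pair 26 held the largest difference in 25 genes, pair 13 in 8 and pair 6 in 8. In the 3 tumours, hypoxic minus normoxic regions, 26 of the 41 genes were higher in all 3 (21.9% of all genes were), 1 was lower in all 3 (13.2% were) and 14 were mixed. Their median tumour difference was 0.86, against 0.08 for all genes, and 19 of them exceeded 1. In tumour tissue fewer cells of a type and less RNA per cell cannot be told apart. Limma on the 6 tumour arrays, blocked by tumour, called 0 probe sets, with a smallest adjusted p of 0.106 and 2496 at an unadjusted p of 0.05.

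Tumour values of single genes varied. Bnip3 differed by 4.11, 3.37 and 2.13 in tumours 1, 2 and 3, and Hmox1 by 4.33, 1.12 and 2.29, more than in culture in 5 of these 6 values. Car9 differed by 1.83, 1.82 and 2.16, close to its 1.60 in culture at 6 h. Bnip3l differed by -0.89, -0.09 and 0.62, Insig2 by 1.12, -1.0 and 0.82, and Egln3 by 1.13, -1.88 and 1.12. The 3 tumours thus disagreed in sign for genes that all 3 culture pairs raised.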

How the data were processed

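Log2 probe set values were used as deposited. The authors made them by RMA with Partek 6.5b, as the submitters' processing notes record, and no source used here says if the 18 arrays were normalized jointly. The labels do not say whether same-group cultures were separate experiments, so p-values measure the spread between these samples. Array number limits the precision. Of 27363 probe sets, 15097 carry 1 symbol in the platform annotation, 323 several and 11943 none; 14324 genes were taken at their probe set with the highest mean. The 12 culture arrays in 4 groups were fitted with limma 3.58.1 in R 4.3.3 (lmFit and eBayes, two-sided, Benjamini-Hochberg over all probe sets, threshold 0.05), which was tested on simulated data. Tumours were fitted apart, with the tumour as a block.

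Same-numbered 6 h cultures deviated together, at correlations of 0.125, 0.193 and 0.192 for numbers 6, 13 and 26, against at most 0.177, 0.00437 and 0.0187 with another number, so that normoxic culture 6 matched another number better. As each was over 0.1, the numbers were taken as pairs for a blocked fit, which is given where it changes a call. The main culture counts, SE and adjusted p come from the fit without the block. Members and the 30 gene lists (447 of 518 members measured, the rest not analysed here) were chosen with earlier results of these data known. Named genes were every called gene, the 10 lower genes of smallest p, 2 members of smallest p per list, and a set of HIF genes. Alternatives were normalization, spread estimate, dim probe sets, thresholds, pairing and single arrays left out. Promoters and their coordinates are RefSeq's, GRCr8.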

Additional observations from a re-analysis of the deposited data

Results flagged for a closer look

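In 6 of the 95 named genes (6.32%) every same-numbered culture pair at 6 h moved one way and every tumour moved the other way, as did 451 of all 14324 genes (3.15%). The difference between culture and tumour was not tested. Syt17 differed by -0.414 between hypoxic and normoxic tumour regions, against a rise of 0.69 in culture. The iron-storage receptor Ncoa4 differed by -0.933 in tumours and 0.39 in culture, the replication factor E2f1 by -1.14 in tumours and 0.25 in culture, and the sterol enzyme Sqle by -1.48 in tumours and 0.28 in culture. In the other direction, the plasminogen activator Plau differed by 1.10 in tumours and -0.55 in culture, and the protease Mmp14 by 0.333 in tumours and -0.15 in culture. Of these culture values only that of Syt17 passed the limma threshold, with an adjusted p of 0.0498.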

How the results depend on the processing

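The 50 higher and 2 lower probe sets became 6 and 0 with all 18 arrays, and 32 and 1 when a change of at least 1 was asked for. The lower count was 0 in the 6 arrays at 6 h alone, 1 after quantile normalization and 7 at an adjusted p of 0.1. Leaving out single arrays gave 27 to 48 higher and 0 to 4 lower, fits with fewer samples. The other alternatives gave 38 to 69 higher probe sets. Hif1a ran from -0.15 to 0.06 without single arrays, positive without hypoxic culture 6 (0.012) or normoxic culture 13 (0.059). Arnt ran from -0.11 to 0.11, negative without hypoxic culture 6 (-0.027) or normoxic culture 26 (-0.11), and was -0.025 after median centring. The cause was not tested. None of the 41 called genes changed direction in any alternative. The contrast of 6 h with 16 h gave 0 calls throughout. With the replicate block, 57 higher and 3 lower probe sets were called, 45 of the original 52 among them. Beside the genes given with it above, it gained Rnf113a1, 2 further probe sets of Mxi1 and 5 probe sets without a single symbol. Beside the 2 lower probe sets given below, it changed no other call. Added after the data were seen, the 16 h calls shared with 6 h, 48 in the main fit, were 49 with the block and 47 after quantile normalization. Of 60 recomputed list medians 1 moved by more than its spread, the endothelial one, to 0.02. Another background correction was not run, since no scanner files were used here.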

Other observations

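Some called probe sets carry no single gene symbol in the platform annotation. Of the 50 higher probe sets 5 had no single symbol, nor had the 2 lower ones. Among the 5, probe sets 10716062 and 10730893 shared every value. Their 1 signal is thus counted 2 times in the 50 and in the 48 also called at 16 h. On the array 319 probe sets share all values with another. Probe set 10765258 read 10.40, 10.36 and 10.38 in hypoxic cultures, against 8.81, 8.94 and 9.24 in normoxic cultures, a rise of 1.38 (limma adjusted p 0.000104), and 10918535 rose by 1.15. Probe set 10748440 read 7.98, 8.69 and 8.66 in hypoxic cultures, against 9.52, 9.63 and 9.22 in normoxic cultures, a fall of 1.02 on the log2 scale (limma adjusted p 0.0478). Probe set 10748443 read 7.57, 7.79 and 7.29 in hypoxic cultures, against 8.34, 8.32 and 8.83 in normoxic cultures (limma adjusted p 0.0206). Both lost their calls with the replicate block.

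Rnf113a1, a zinc finger gene, differed by 0.66 and was called with the replicate block (adjusted p 0.0322) and not without it (0.311), within 0.0322 to 1 over all alternatives.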
